A study of Mus musculus with 8 samples.

Results

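A set of 10 genes of acetylcholine signalling was followed in ventral lumbar cord, comparing MLC/SOD1G93A mice with FVB mice. The set was defined by gene symbol, with earlier results of these data known, and comprised Chat, Slc18a3, Slc5a7, Ache, Bche, Chrna4, Chrna7, Chrnb2, Chrm2 and Chrm3. Each of the 10 genes had 1 row of its own among the 41345 rows of the array table, where a row is a transcript cluster, the array's unit for a gene. A further row carried both Chrm2 and a second gene, 9330158H04Rik, and was left out of the counts. MLC/SOD1G93A mice express mutant human SOD1G93A in skeletal muscle, driven by the muscle-specific promoter of myosin light chain (MLC), on the FVB background, and non-transgenic FVB mice were the controls. All animals were 120 days old, and each genotype had 4 arrays of total RNA, 1 per sample. Nothing in the labels says that each replicate was a separate animal, so the p-values speak for the spread between samples, which may be technical. Because the transgene is human and driven in skeletal muscle, no gene of the cord checks the genotype labels.

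Acetylcholine is the transmitter of motor neurons, at the neuromuscular junction and at their recurrent collaterals onto Renshaw cells. It is also released onto motor neurons by cholinergic interneurons through large terminals called C boutons, which face muscarinic receptors. Choline acetyltransferase (Chat) makes it, the vesicular transporter (Slc18a3, VAChT) loads it into vesicles, and after release cholinesterases cleave it and the high-affinity transporter Slc5a7 takes the choline back. Nicotinic receptors are ion channels of 5 subunits, and muscarinic receptors act through G proteins.

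None of the 10 genes differed between the genotypes beyond the spread of the arrays. The 5 genes of synthesis, transport and breakdown had lower means in MLC/SOD1G93A cord and the 5 receptor genes had higher means, but each difference lay within an interval that includes 0. A p that misses the threshold does not show that the genotypes were alike, so intervals are given for each gene. The values ran from −0.20 for Chat to 0.26 for Chrm3 on the log2 scale. By limma, 0 of the 10 passed an adjusted p (Benjamini-Hochberg over all rows) under 0.05, the smallest being 0.776, and 0 had an unadjusted p under 0.05, against 0% and 6.7% of all rows (3.61% higher and 3.08% lower). None passed that p together with a fold over 1.5, as 0.97% of all rows did. The methods' t-test likewise found 0 of 10 at either level. In all 10 genes the values of the 2 genotypes overlapped, while 4.21% of all rows had groups that did not (2.11% higher and 2.1% lower). The median difference of the members was 0.018, beside 0.0041 over all rows, and their median absolute difference was 0.12, beside 0.096. In such bulk tissue, fewer cells of a type and less RNA per cell cannot be told apart.

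**Figure D1:**
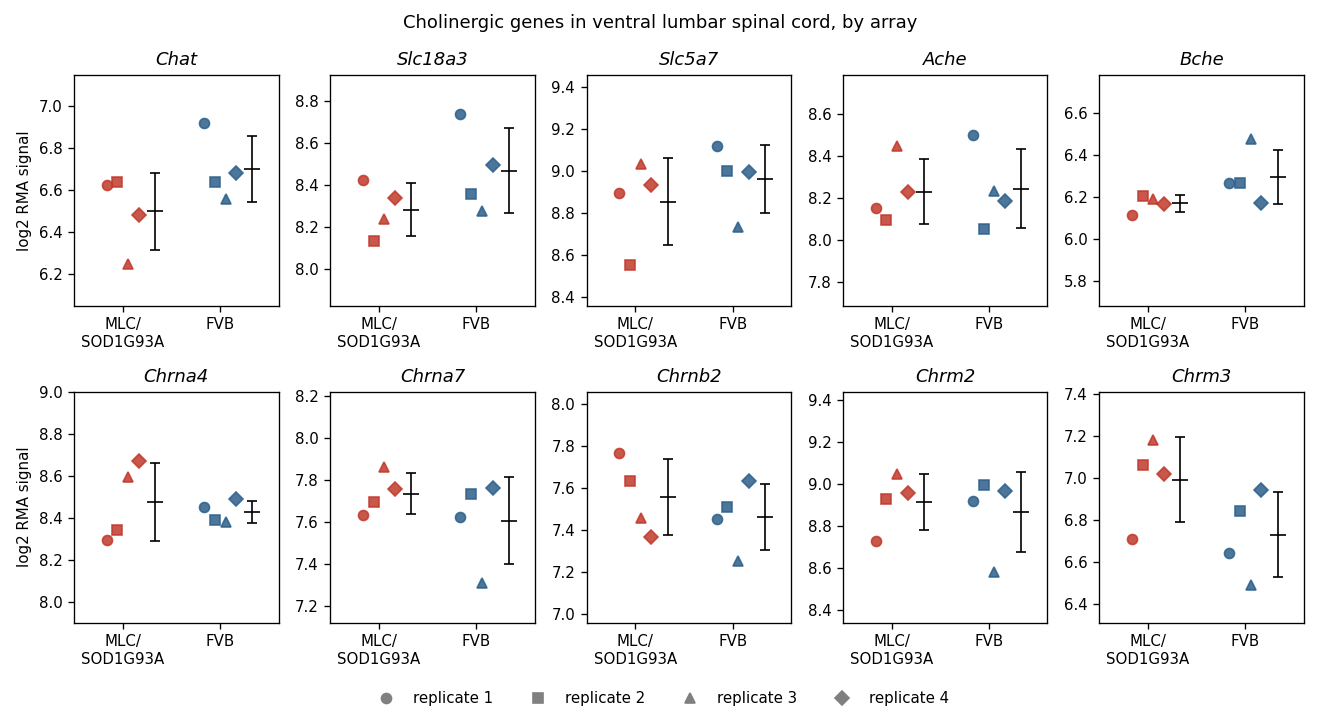
Log2 RMA signal of each of the 10 cholinergic genes on every array, with MLC/SOD1G93A in red and FVB in blue, marker shapes for replicate numbers, and the mean with its SD as black bars (n = 4 each). Every panel spans the same height, the genotypes overlap in all 10 genes, and FVB replicate 3 is the lowest FVB array for all 5 receptor genes.

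Chat and Slc18a3 are nested, the transporter gene lying inside the span of the Chat gene on the same strand. The RefSeq bases (GRCm38.p6) just before the start of both are shown because the 2 rows gave nearly the same difference. Those before Chrna7, Chrm2 and Chrm3 are shown because Chrna7 varied with the other 2 over the arrays by Pearson's r, as described further on. Each window holds 250 bases, 5′ to 3′ on the gene's strand, ending at the base before the start. Capitals mark matches to 4 motifs searched on both strands, none of which overlapped another. The GC box, bound by Sp1-type factors, was searched as GGGCGG and was present in 32.7% of windows of this length before 32851 annotated starts. The CRE half-site, bound by CREB-type factors, was searched as TGACG and was present in 17.8% of those windows. For the TATA box, where the general machinery docks, the letters were TATAAA and the share was 12.4%. For the E box, bound by helix-loop-helix factors, the letters were CACGTG and the share was 6.02%.
Chat, chr14:32465910-32466159, minus strand: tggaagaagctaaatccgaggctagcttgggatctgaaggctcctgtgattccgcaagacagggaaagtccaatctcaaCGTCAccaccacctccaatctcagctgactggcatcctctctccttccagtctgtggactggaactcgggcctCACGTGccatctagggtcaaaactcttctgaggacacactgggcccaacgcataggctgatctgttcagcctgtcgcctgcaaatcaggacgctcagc
Slc18a3, chr14:32464851-32465100, minus strand: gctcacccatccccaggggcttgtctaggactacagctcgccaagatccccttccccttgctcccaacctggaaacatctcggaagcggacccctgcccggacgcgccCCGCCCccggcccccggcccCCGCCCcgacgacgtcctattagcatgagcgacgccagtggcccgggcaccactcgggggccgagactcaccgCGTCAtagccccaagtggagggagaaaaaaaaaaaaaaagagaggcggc
Chrna7, chr7:63212527-63212776, minus strand: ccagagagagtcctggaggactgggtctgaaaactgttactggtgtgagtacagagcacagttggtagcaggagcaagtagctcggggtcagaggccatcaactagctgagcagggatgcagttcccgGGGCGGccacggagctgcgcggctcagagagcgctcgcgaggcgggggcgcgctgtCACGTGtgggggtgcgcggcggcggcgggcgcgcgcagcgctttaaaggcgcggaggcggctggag
Chrm2, chr6:36387834-36388083, plus strand: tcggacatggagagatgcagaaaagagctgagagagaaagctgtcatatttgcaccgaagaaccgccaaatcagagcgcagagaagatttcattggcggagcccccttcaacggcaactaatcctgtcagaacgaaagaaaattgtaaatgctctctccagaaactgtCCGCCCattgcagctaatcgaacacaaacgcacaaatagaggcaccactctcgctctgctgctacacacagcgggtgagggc
Chrm3, chr13:10360804-10361053, minus strand: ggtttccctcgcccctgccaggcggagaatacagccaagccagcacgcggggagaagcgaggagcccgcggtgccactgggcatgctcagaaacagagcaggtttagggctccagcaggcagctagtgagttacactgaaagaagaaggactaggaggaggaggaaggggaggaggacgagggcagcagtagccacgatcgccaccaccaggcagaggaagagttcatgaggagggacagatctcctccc
The Chat window held 1 CRE half-site and 1 E box and no GC box, whereas the Slc18a3 window held 2 GC boxes and 1 CRE half-site. The Chrna7 window held 1 GC box and 1 E box, the Chrm2 window 1 GC box, and the Chrm3 window 0 of the 4 motifs. No TATA box of these letters was found in any of the 5 windows. The share of G and C bases was 54.8% before Chat and 66.0% before Slc18a3, and 67.2%, 50% and 61.2% before Chrna7, Chrm2 and Chrm3. A match of letters is a description and was not tied to any value on the arrays.

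The genes of the cholinergic terminal came first. Chat (transcript cluster 17304880), the enzyme that joins choline to acetyl-CoA, read 6.62, 6.64, 6.25 and 6.48 on MLC/SOD1G93A replicates 1 to 4. On FVB replicates 1 to 4 it read 6.92, 6.64, 6.56 and 6.68. The lowest reading belonged to MLC/SOD1G93A replicate 3 and the highest to FVB replicate 1, and the other 6 arrays lay between 6.48 and 6.68. The mean was 6.50 ± 0.18 in MLC/SOD1G93A and 6.70 ± 0.16 in FVB (SD, n = 4 each), a difference of −0.20 ± 0.12 (SE). This is 1.15-fold lower, with a 95% interval of −0.47 to 0.06, an unadjusted limma p of 0.118 and an exact two-sided permutation p of 0.171. The lower bound corresponds to a 1.38-fold fall. With 4 arrays against 4 the smallest p that relabelling allows is 0.0286.

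Slc18a3 (17304899), which fills synaptic vesicles with acetylcholine, had signals of 8.42, 8.13, 8.24 and 8.34 in MLC/SOD1G93A cord. The FVB arrays gave 8.74, 8.36, 8.28 and 8.50. As with Chat, FVB replicate 1 was the highest of the 8, and 2 of the 4 MLC/SOD1G93A arrays lay within the FVB range. The mean was 8.28 ± 0.13 in MLC/SOD1G93A and 8.47 ± 0.20 in FVB (SD, n = 4 each), so the gene was 1.14-fold lower. The difference was −0.19 ± 0.12 (SE), with a 95% interval of −0.45 to 0.08 and a limma p of 0.146.

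Slc5a7 (17346018), the transporter whose choline uptake limits acetylcholine synthesis, read 8.89, 8.55, 9.03 and 8.93 in MLC/SOD1G93A cord and 9.12, 9.00, 8.73 and 8.99 in FVB cord. Here the lowest array was MLC/SOD1G93A replicate 2 rather than replicate 3, and the ranges lay almost on top of each other. The difference was −0.11 ± 0.13 (SE), with a 95% interval of −0.40 to 0.18 and a limma p of 0.41, and it was −0.0087 without MLC/SOD1G93A replicate 2 and −0.057 without FVB replicate 1. All 3 terminal genes were highest on FVB replicate 1. Averaged per array, they lay at 7.77 to 7.98 in MLC/SOD1G93A and at 7.86 to 8.26 in FVB. Without FVB replicate 1 the difference of Slc18a3 was −0.10 and that of Chat −0.13, and without MLC/SOD1G93A replicate 3 that of Chat was −0.12.

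Chat and Slc18a3 followed each other over the FVB arrays and hardly over the MLC/SOD1G93A arrays, with r = 0.985 and r = 0.104 over 4 arrays each, too few for a test. Over all 8 arrays Pearson's r was 0.713 (exact permutation p = 0.0588) and Spearman's rho 0.595 (exact permutation p = 0.132), or p = 0.378 and p = 0.632 after adjustment over 45 pairs of members. Without FVB replicate 1 and MLC/SOD1G93A replicate 3, the arrays farthest from the median of Chat, r was 0.235 (exact permutation p = 0.65, 6 arrays). Leaving out the most distant arrays narrows the range of Chat, so this cannot show which arrays the relation rests on.

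Among the enzymes that end the signal, Ache (17443523), the esterase of cholinergic synapses, showed the least difference of all members. Its signals were 8.15, 8.10, 8.45 and 8.23 on MLC/SOD1G93A arrays, against 8.50, 8.05, 8.23 and 8.19 on FVB arrays. Both genotypes thus covered nearly the same range. The difference was −0.013 ± 0.12 (SE), with a 95% interval of −0.28 to 0.26, and 92.6% of all rows differed by more. The interval leaves room for a 1.22-fold fall or a 1.20-fold rise.

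Bche (17405908), a related esterase of plasma and of glia, was the member with the tightest values in MLC/SOD1G93A cord, at 6.12, 6.20, 6.19 and 6.17. In FVB cord it read 6.27, 6.27, 6.48 and 6.17. FVB replicate 3 was the highest of the 8 arrays, and FVB replicate 4 fell inside the MLC/SOD1G93A range. The mean was 6.17 ± 0.039 in MLC/SOD1G93A and 6.30 ± 0.13 in FVB (SD, n = 4 each). The difference was −0.12 ± 0.081 (SE), with a 95% interval of −0.31 to 0.060, a limma p of 0.16 and an exact two-sided permutation p of 0.0857. Without FVB replicate 3 it was −0.064 (limma unadjusted p = 0.394).

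The nicotinic subunits of the set form the main receptor types of the brain and cord. Chrna4 and Chrnb2 assemble together into a high-affinity channel, and Chrna7 builds a calcium-permeable channel by itself. Chrna4 (17395718) read 8.30, 8.34, 8.60 and 8.67 in MLC/SOD1G93A cord and 8.46, 8.39, 8.38 and 8.49 in FVB cord. The MLC/SOD1G93A arrays lay on both sides of all FVB arrays, and the difference was 0.048 ± 0.099 (SE), with a 95% interval of −0.18 to 0.28, and it was 0.0088 without MLC/SOD1G93A replicate 3 and −0.017 without MLC/SOD1G93A replicate 4. Chrnb2 (17407124) read 7.77, 7.63, 7.46 and 7.37 in MLC/SOD1G93A cord and 7.45, 7.51, 7.25 and 7.63 in FVB cord. Its difference was 0.094 ± 0.12 (SE), with a 95% interval of −0.17 to 0.36, and it was 0.024 without MLC/SOD1G93A replicate 1 and 0.025 without FVB replicate 3. On the MLC/SOD1G93A arrays the partners ran in opposite order, Chrna4 being higher on replicates 3 and 4 and Chrnb2 on replicates 1 and 2.

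Chrna7 (17491763) read 7.63, 7.69, 7.86 and 7.75 on MLC/SOD1G93A arrays and 7.62, 7.73, 7.31 and 7.76 on FVB arrays. Apart from FVB replicate 3, the FVB values fell among or just beside those of MLC/SOD1G93A. The difference was 0.13 ± 0.11 (SE), with a 95% interval of −0.13 to 0.39 and a limma p of 0.285. Without FVB replicate 3 it was 0.029 (limma unadjusted p = 0.74).

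Of the muscarinic receptors, Chrm2 is coupled to inhibitory G proteins and is the receptor that gathers opposite C boutons on motor neurons. Its row (17457310) gave 8.73, 8.93, 9.05 and 8.96 in MLC/SOD1G93A cord and 8.92, 9.00, 8.58 and 8.97 in FVB cord. The difference was 0.050 ± 0.11 (SE), with a 95% interval of −0.21 to 0.31, and it turned to −0.044 without FVB replicate 3. The row shared with 9330158H04Rik (17465837) differed by 0.077 ± 0.12 (SE).

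Chrm3, a receptor coupled to calcium release, had the largest difference of the 10 genes. Its row (17290447) gave 6.71, 7.06, 7.18 and 7.02 on MLC/SOD1G93A arrays and 6.64, 6.84, 6.49 and 6.94 on FVB arrays. The highest 3 readings of the 8 were MLC/SOD1G93A arrays, but MLC/SOD1G93A replicate 1 lay below FVB replicates 2 and 4. The mean was 6.99 ± 0.20 in MLC/SOD1G93A and 6.73 ± 0.20 in FVB (SD, n = 4 each), so the gene was 1.20-fold higher. The difference was 0.26 ± 0.13 (SE), with a 95% interval of −0.043 to 0.57, a limma p of 0.0836, an adjusted p of 0.776 and an exact two-sided permutation p of 0.143. Of all rows, 13.6% differed by more. Without MLC/SOD1G93A replicate 1 the difference was 0.36 (limma unadjusted p = 0.0211, adjusted p = 0.584), and without FVB replicate 4 it was 0.33 (limma unadjusted p = 0.0448, adjusted p = 0.709). It was 0.18 (limma unadjusted p = 0.208) without FVB replicate 3 and 0.20 (limma unadjusted p = 0.197) without MLC/SOD1G93A replicate 3. With the mean of the caudal Hox genes as a covariate it was 0.0012 ± 0.17 (SE, limma unadjusted p = 0.994). That Hox mean was itself 0.72 higher in MLC/SOD1G93A.

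**Figure D2:**
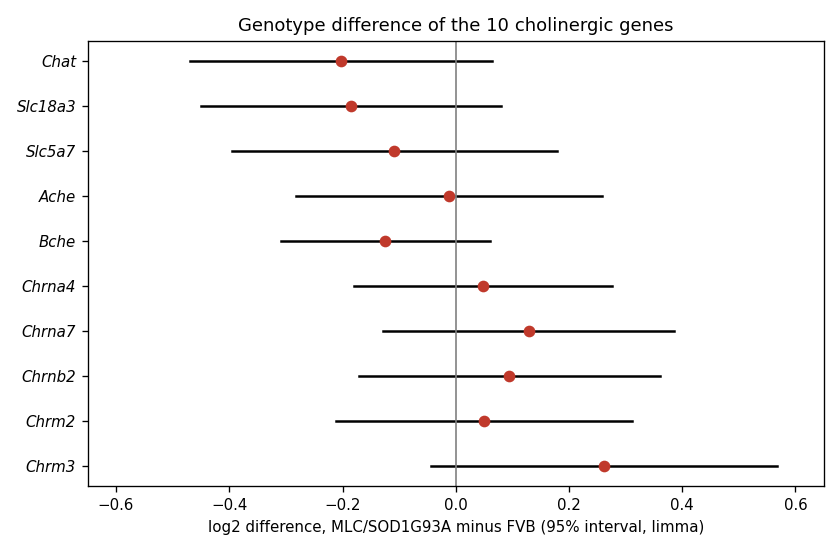
Log2 difference of each cholinergic gene, MLC/SOD1G93A minus FVB (red points), with its 95% limma interval (black lines) and a grey line at 0. All 10 intervals cross 0, and they reach from −0.47 for Chat to 0.57 for Chrm3.

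Over the 10 genes the SE lay between 0.081 and 0.13. The widest bounds allow a fall of up to 1.38-fold (Chat) and a rise of up to 1.48-fold (Chrm3), both under the study's fold threshold of 1.5.

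Of the 10 pairs of receptor genes, 2 varied together over the arrays by Pearson's r after adjustment and 0 by Spearman's rho. Chrna7 and Chrm2 had a Pearson's r of 0.926 (exact permutation p = 0.00067) and a Spearman's rho of 0.905 (exact permutation p = 0.00456) over the 8 arrays. For Chrna7 and Chrm3 these were 0.870 (exact permutation p = 0.00104) and 0.833 (exact permutation p = 0.0154). After adjustment over the 45 pairs of members, Pearson's p was 0.0234 for both and Spearman's p was 0.205 and 0.346. No other pair of members passed. How often pairs of other genes vary together this closely was not tested. Among the other receptor pairs r ran from −0.468 for Chrna4 and Chrnb2 to 0.808 for Chrm2 and Chrm3. Without FVB replicate 3 and MLC/SOD1G93A replicate 3, the arrays farthest from the median of Chrna7, r was 0.707 (exact permutation p = 0.0389, 6 arrays) with Chrm2 and 0.758 (exact permutation p = 0.1, 6 arrays) with Chrm3. These 2 p-values were not adjusted over the 45 pairs, and that with Chrm3 was not under 0.05 even so. Sets of 4 arrays with high or with low sensory markers, described next, were too small for a correlation of their own. After subtracting each genotype's mean, r was 0.954 and 0.852.

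**Figure D3:**
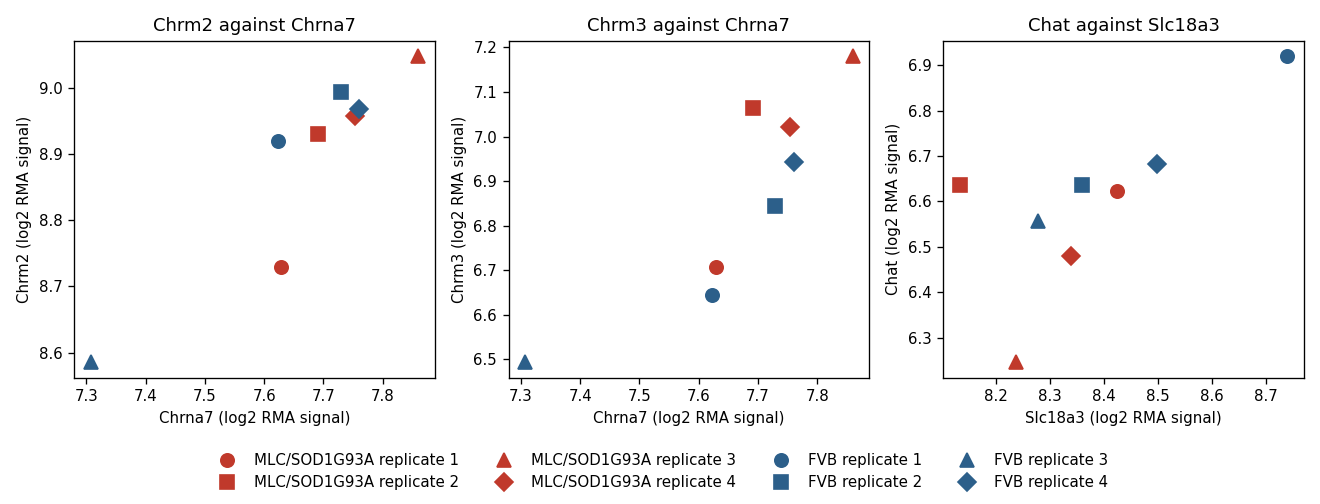
Log2 RMA signals of member pairs on the 8 arrays, MLC/SOD1G93A in red and FVB in blue, with marker shapes for replicate numbers. Chrm2 and Chrm3 climb with Chrna7 from FVB replicate 3 at the low end to MLC/SOD1G93A replicate 3 at the high end. For Chat against Slc18a3, FVB replicate 1 is highest in both genes, and MLC/SOD1G93A replicate 3 is lowest in Chat only.

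FVB replicate 3 was the lowest FVB array for all 5 receptor genes and the lowest of the 8 arrays for 4 of them, all but Chrna4. The same array had the highest means of 7 endothelial and mural markers, 7.51 against 6.76 to 7.11 on the other arrays, and of 6 skeletal muscle markers, 5.25 against 4.65 to 4.88. It also had the highest mean of 6 meninges and fibroblast markers, 7.75 against 6.99 to 7.61, and the lowest of 10 caudal Hox genes, 5.21 against 5.65 to 6.76. The highest caudal Hox mean, 6.76, was that of MLC/SOD1G93A replicate 3, the highest array for Chrna7, Chrm2 and Chrm3. Apart from the Hox covariate, the part of these lists in the receptor values was not tested. FVB replicate 1 was the highest array for 4 members, Chat, Slc18a3, Slc5a7 and Ache.

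The arrays also differed in the level of sensory ganglion genes. Markers of sensory ganglion neurons averaged 6.78 and 6.81 on MLC/SOD1G93A replicates 1 and 2 and 6.14 and 6.32 on FVB replicates 2 and 4. On the remaining arrays they averaged 5.01 and 5.08 in MLC/SOD1G93A and 4.93 and 4.95 in FVB. Within the 4 arrays of high sensory markers Chrm3 differed by −0.0081, Chrna7 by −0.084 and Chat by −0.030. Within the 4 arrays of low sensory markers they differed by 0.53 (limma unadjusted p = 0.0136, adjusted p = 0.664), 0.34 and −0.38. Slc5a7 differed by −0.27 among arrays of high and by 0.057 among those of low sensory markers. Whether the differences themselves differ between the arrays of high and of low sensory markers was not tested.

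Among the arrays of low sensory markers, both MLC/SOD1G93A arrays had high Xist, an RNA made from the inactive X chromosome (10.4 and 10.5), and both FVB arrays had low Xist (4.46 and 3.63). There, the sex that Xist reflects and the genotype cannot be told apart. The caudal Hox mean also split by genotype there, at 6.76 and 6.50 in MLC/SOD1G93A and 5.70 and 5.21 in FVB. Among the arrays of high sensory markers it was 6.38 and 6.16 in MLC/SOD1G93A and 5.65 and 6.35 in FVB. Its part in the differences within either set of arrays was not tested. Over the 5 arrays with low Xist, MLC/SOD1G93A replicates 1 and 2 and FVB replicates 1 to 3, Chrm3 differed by 0.225, Chrna7 by 0.11 and Chat by −0.075 (limma unadjusted p = 0.232, 0.517 and 0.617).

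**Figure D4:**
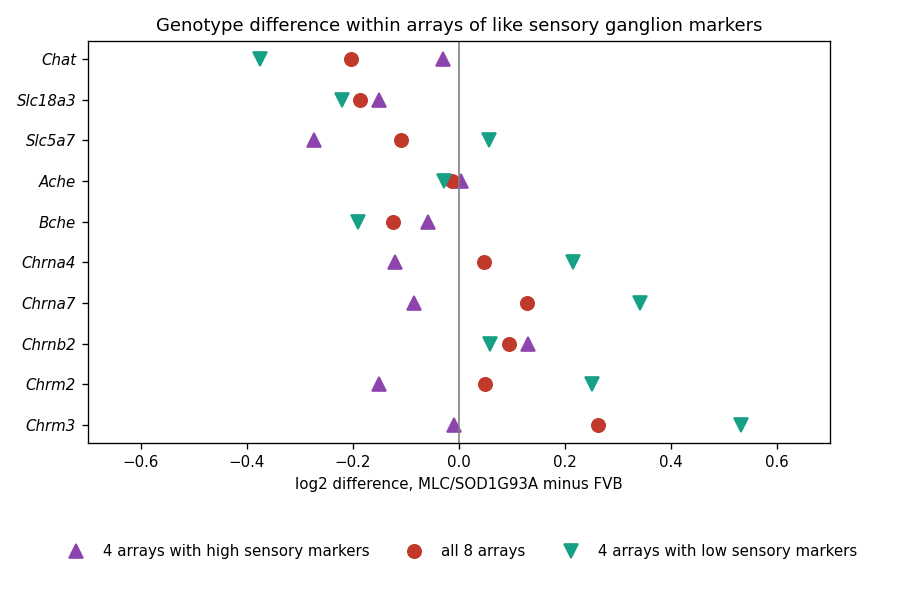
Log2 difference, MLC/SOD1G93A minus FVB, of each cholinergic gene over all 8 arrays (circles), over the 4 arrays with high sensory ganglion markers (upward triangles) and over the 4 with low ones (downward triangles). Chrm3 sits at 0.53 among arrays with low markers and at −0.0081 among those with high markers, and Slc5a7, Ache, Chrna4, Chrna7 and Chrm2 also lie on both sides of 0.

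The wider pathway was taken from 7 lists of 47 genes, of which 41 were analysed here. Of these, 21 were higher and 20 lower, with a median difference of 0.0053. By limma, 0 passed the adjusted threshold and 3 (7.32%) had an unadjusted p under 0.05, against 6.7% of all rows, and all 3 were lower. They were Slc44a3, Chrna5 and Chrna10.

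Slc44a3, of the choline transporter-like family, had the largest difference of the wider pathway. It read 5.05, 4.80, 4.95 and 4.51 in MLC/SOD1G93A cord and 5.47, 5.13, 5.31 and 4.95 in FVB cord, where only replicate 4 fell within the MLC/SOD1G93A range. The difference was −0.39 ± 0.15 (SE), 1.31-fold lower (limma unadjusted p = 0.0294, adjusted p = 0.709). Slc44a1, Slc44a2, Slc44a4, Slc44a5, Chka, Acly and Slc10a4, the rest of the choline list, differed by −0.16 to 0.21.

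Of 13 other nicotinic subunits 8 were higher and 5 lower. Chrna5, an accessory subunit of the receptor that Chrna4 and Chrnb2 form, differed by −0.20 ± 0.086 (SE, limma unadjusted p = 0.0458) and Chrna10, known from hair cells, by −0.28 ± 0.12 (SE, limma unadjusted p = 0.0498). Both rows, like that of Slc44a3, had means under the median row mean of the array (5.33). Of the 41 genes of the wider pathway, 25 had means above it. Chrna6, chosen after its values were seen, read 6.17, 6.28, 5.02 and 5.11 in MLC/SOD1G93A cord and 5.29, 5.43, 4.97 and 5.74 in FVB cord. It was highest on the 2 MLC/SOD1G93A arrays with high sensory markers and, within FVB, on the 2 with high sensory markers. The muscle subunits Chrna1, Chrnb1, Chrnd, Chrne and Chrng, all with means under that median, differed by −0.092 to 0.13. Chrm1, Chrm4 and Chrm5 differed by 0.12, −0.049 and 0.14.

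Of 9 genes for receptor assembly and modulation 5 were higher and 4 lower, from −0.11 to 0.16. Rapsn, which clusters nicotinic receptors at the muscle endplate, was the only gene of the 41 whose genotypes did not overlap. Of all rows, 4.21% had groups that did not. Rapsn read 5.52 to 5.69 in MLC/SOD1G93A and 5.405 to 5.49 in FVB. It differed by 0.14 ± 0.067 (SE, limma unadjusted p = 0.0626) and was named after its values were seen. Prima1, the anchor of Ache in neuronal membranes, differed by −0.14. The transcription factors Isl1, Lhx3, Lhx4, Mnx1 and Lhx8, which include those that set motor neuron and cholinergic identity, differed by −0.11 to 0.0053. The means of Lhx3, Mnx1 and Lhx8 lay under the median row mean of the array. The potassium channels Kcnn2 and Kcnn3 of the C bouton site differed by 0.056 and 0.054.

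**Figure D5:**
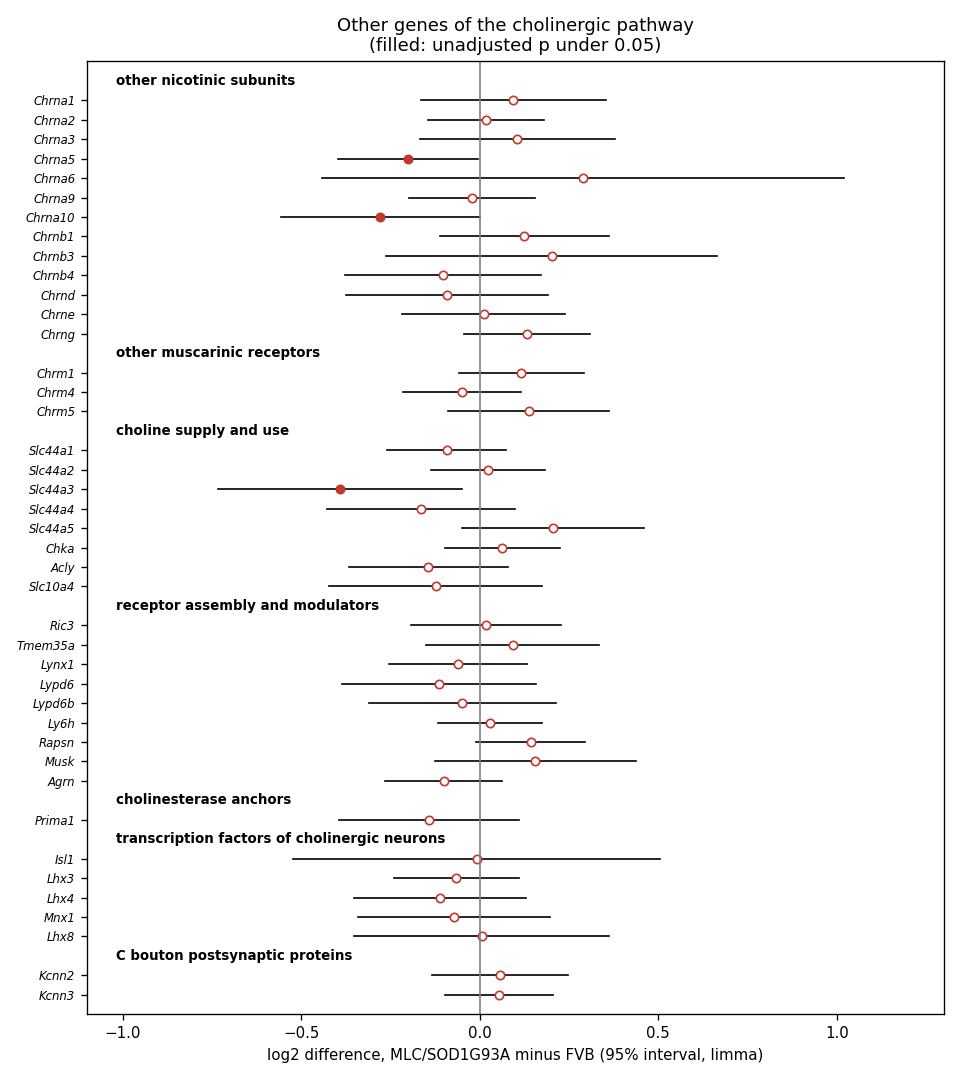
Log2 difference, MLC/SOD1G93A minus FVB, of 41 other genes of the cholinergic pathway in 7 lists, with 95% limma intervals as black lines. Filled points mark the 3 genes with an unadjusted p under 0.05, Slc44a3, Chrna5 and Chrna10, all on the lower side.

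Motor neurons, the main cholinergic cells of the tissue, were read by 7 markers. Their mean ran from 6.08 to 6.61 in MLC/SOD1G93A and from 6.04 to 6.62 in FVB. Of these markers 2 were higher and 5 lower, and 0 had an unadjusted p under 0.05 by limma. Chodl, Mmp9, Esrrg and Mnx1 differed by −0.055, −0.23, 0.0016 and −0.072, with a limma unadjusted p of 0.1 for Mmp9. The mean of Mnx1 lay under the median row mean of the array. Prph, Isl1 and Calcb, the rest of the 7 markers, are also made by sensory neurons and, within each genotype, were highest on the arrays with high sensory markers. With the motor neuron mean, which includes these genes, as a covariate Chat differed by −0.18 and Slc18a3 by −0.17. Pan-neuronal markers averaged 10.54 to 10.75 in MLC/SOD1G93A and 10.52 to 10.65 in FVB.

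Markers of other cell types were read as well, and 0 rows of the array passed the adjusted threshold. At an unadjusted p under 0.05 by limma, 3.61% of all rows were higher and 3.08% lower. The 6 Schwann cell markers analysed all had higher means, each at that p. They averaged 7.90 to 8.42 in MLC/SOD1G93A against 7.44 to 7.96 in FVB, with Cdh19 at 0.47 and Drp2 at 0.77. The 5 oligodendrocyte markers all had lower means, 3 of them at that p, at 9.58 to 9.90 in MLC/SOD1G93A against 10.01 to 10.24 in FVB, with Opalin at −0.725 and Mog at −0.46. Caudal Hox genes, which mark level along the cord, averaged 6.16 to 6.76 in MLC/SOD1G93A and 5.21 to 6.35 in FVB. Of the 10 analysed, 9 were higher and 1 lower, 8 of the higher ones at that p. When the caudal Hox mean entered the fit, Chrm3 differed by 0.0012 ± 0.17 (SE, limma unadjusted p = 0.994). Slc18a3 then differed by −0.30 ± 0.17 (SE, limma unadjusted p = 0.121). The Hox mean was itself 0.72 higher in MLC/SOD1G93A, so this fit cannot fully tell covariate and genotype apart. All 4 astrocyte and all 4 microglia markers had lower means, 2 and 3 of them with an unadjusted p under 0.05 by limma. Their medians were −0.21 and −0.27, with Gfap at −0.61 and Cx3cr1 at −0.28. Dorsal horn markers had a median of −0.0040 (3 higher and 4 lower, with Tac1 at 0.29 and Cartpt at −0.29), meninges and fibroblast markers one of 0.0205, endothelial and mural markers one of −0.17 (Kdr at −0.41), and skeletal muscle markers one of −0.053. Apart from the covariate fits, the part of these lists in the cholinergic values was not tested.

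As a description over 8 arrays, the genes whose deviations from the genotype means were most like those of the mean of Chat, Slc18a3 and Slc5a7 were Gpatch2l (r = 0.979), Fam160a2 (r = 0.973) and Klk4 (r = 0.971), of 13203 genes compared. Those most like Bche were Ankrd34b (r = 0.977), Gm4889 and Mfge8 (r = 0.967 each).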

How the data were processed

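Each of 8 RNA samples of ventral lumbar cord had its own Affymetrix Mouse Gene ST array. The log2 signals deposited by the authors were RMA summaries per transcript cluster with sketch quantile normalization, made with Affymetrix tools. The submitters' processing notes name Affymetrix Expression Console, with versions, filters and build not given in the sources used here. Such normalization hides a shift common to most transcripts. Arrays have no depth, so their number sets how precise a value is.

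All 41345 rows were fitted unpaired with limma 3.58.1 in R 4.3.3, with no further normalization or filter, and p-values were adjusted over all rows (Benjamini-Hochberg, 0.05), with 95% intervals from the same fit. Single genes also had an exact two-sided permutation test over the 70 relabellings. The methods' t-test was a one-way analysis of variance, with thresholds of 0.05 for the unadjusted p and 1.5 for the fold. Promoter windows came from a RefSeq table (GRCm38.p6). Platform annotation gave 1 symbol to 23521 rows, several to 1820 and none to 16004. Array signals are not comparable between genes. A listed gene with several rows (Chrm1, Chka, Ckm and Col1a2) was read on its brightest. The procedure was tested on simulated data. Members, lists and named genes were chosen with earlier results of these data known. Named were all members, at most 4 genes per list with unadjusted p under 0.05, and the 3 genes most like the terminal genes and like Bche. The rule also named Ncmap, Egr2, Mag, Aqp4, Csf1r, P2ry12, Dcn, Slc22a6, Hoxc10, Hoxd10, Hoxc13 and Hoxa10 from the marker lists, given in the text only through their lists. Some listed genes were not analysed here.

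Pairwise correlations over all rows were 0.978 to 0.986 within and 0.977 to 0.987 between genotypes, and 0 pairs of arrays were identical. Alternatives covered the test, array weights, filter, scaling, covariates, the replicate block and leaving out each array.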

Additional observations from a re-analysis of the deposited data

How the results depend on the processing

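Under 23 alternatives, 3 of which were added after seeing the data (the arrays with high and low sensory markers and those with low Xist), 0 of 10 cholinergic genes passed the adjusted threshold in any setting. Chat and Slc18a3 kept a lower and Chrm3, except at −0.0081 in the arrays with high sensory markers, a higher mean throughout. The number of genes with an unadjusted p under 0.05 stayed at 0 but for 1 (Chrm3) without MLC/SOD1G93A replicate 1, without FVB replicate 4 and in the arrays with low sensory markers, a range of 0 to 1 with arrays left out. The deviations of arrays with the same replicate number had r of −0.044, 0.18, −0.083 and 0.24 for numbers 1 to 4. MLC/SOD1G93A replicates 2 and 4 correlated best with the FVB array of their own number, and replicates 1 and 3 did not. With the replicate block 2773 rows had an unadjusted p under 0.05, the median difference was 0.018 and 0 genes passed. Chat and Slc18a3 then had limma unadjusted p-values of 0.0696 and 0.0745. Every member had 1 row of its own, so averaging rows changed nothing.

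The median difference became 0.107 with the Schwann cell covariate, −0.108 with the caudal Hox covariate, −0.0715 in the arrays with high sensory markers and −0.081 in those with low Xist. Leaving out arrays moved it between −0.040 and 0.062. Directions turned with the Schwann cell covariate for Slc5a7 (0.091 ± 0.23), Ache (0.31 ± 0.18) and Chrnb2 (−0.16 ± 0.20, SE for each). With the caudal Hox covariate they turned for Bche (0.016), Chrna4 (−0.090), Chrna7 (−0.125), Chrnb2 (−0.019) and Chrm2 (−0.16). In the arrays with high sensory markers they turned for Ache (0.0033), Chrna4 (−0.12), Chrna7 (−0.084) and Chrm2 (−0.15), in those with low sensory markers for Slc5a7 (0.057), and in those with low Xist for Chrna4 (−0.087) and Chrm2 (−0.0030). The Xist covariate turned Chrna4 (−0.0057) and the sensory covariate Ache (0.036). With arrays left out, Ache ran from −0.086 to 0.073, Chrna4 from −0.017 to 0.11 and Chrm2 from −0.044 to 0.11. The Schwann cell and caudal Hox means were themselves 0.63 and 0.72 higher in MLC/SOD1G93A. Fits with them as covariates cannot fully tell covariate and genotype apart. The cause of these turns was not tested.

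Over all rows, 401 passed an unadjusted p under 0.05 with a fold over 1.5, and 2769 that p alone. The first count was 267 by the methods' t-test and, out of fewer rows, 136 in rows above the median, where 1837 passed the p alone. It was 1108 with the Schwann cell and 857 with the caudal Hox covariate, 855 and 1261 in the arrays with high and low sensory markers, and 803 in those with low Xist. Leaving out arrays gave 427 to 578. By the adjusted p, 0 rows passed except 1 in the arrays with low sensory markers. The spread of 4 arrays per genotype limits what could be detected.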
